A study of Rattus norvegicus with 6 samples.

Results

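The 10 genes described here encode the main heat shock chaperones of the cytosol and the mitochondrial matrix: Hspa8, Hsph1, Hsp90aa1, Hsp90ab1, Dnaja1, Dnajb1 and Hspb1 in the cytosol and Hspd1, Hspe1 and Hspa9 in mitochondria. Their rows were found by gene symbol. Of the 10 symbols, 9 had a row among 33022 loci, and 7 reached a mean of 1 FPKM (fragments mapped to a gene, scaled to transcript length and library size), which 10201 loci with a symbol did. All 7 had a mean of at least 10 FPKM.

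The data came from livers of male obesity-prone Sprague Dawley rats fed a control diet (CD) or a Western diet (WD), rich in milk fat and sucrose, for 2 weeks. All rats were then fasted for 16 h and refed their own diet for 1 h, so neither diet group was measured in the fasted state. The 6 libraries hold total RNA, RNA of the light gradient fraction (mRNAs on 3 or fewer ribosomes) and RNA of the heavy fraction (4 or more ribosomes) from each diet. RNA of 3 rats was pooled for each library and each group is 1 library, so no value has a replicate, no difference could be tested, and the spread between rats is unknown.

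Cytosolic HSP70 proteins bind exposed hydrophobic stretches of unfolded polypeptides in a cycle driven by ATP. J-domain proteins bring them their substrates and stimulate ATP hydrolysis, and HSP110 proteins release the nucleotide. HSP90 acts later, on nearly folded clients such as kinases and the steroid hormone receptors. Small heat shock proteins hold unfolded chains without ATP. In mitochondria, HSP70 pulls precursor proteins across the inner membrane, and the barrel of HSP60 with its HSP10 lid then encloses and folds them. Transcription of most of these genes can be raised by heat shock factor 1, which binds arrays of inverted GAA units, the heat shock element.

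The promoters are shown first, since neighbouring inverted units were found in most of them. In the RefSeq promoters of the rat assembly GRCr8, 9 of the 10 genes had an entry, from 250 bases before to 50 bases after the start. A pair of neighbouring inverted units, GAANNTTC or TTCNNGAA, was searched. Both patterns read the same on either strand. A pair was found in 8 of the 9 promoters, all except that of Hsp90ab1, and in 15.4% of all 27457 promoters. An array of 3 units, which contains 2 overlapping pairs, was found for Hspa8, Hsph1, Dnaja1, Hspd1 and Hspe1, and in 0.736% of all promoters. The following 60 bases are given 5′ to 3′ on the gene's strand for the members described below. Each stretch lies before the gene's start, and the capitals mark the GAA and TTC units of a pair.

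Hspd1, chr9:64084224-64084283, minus strand: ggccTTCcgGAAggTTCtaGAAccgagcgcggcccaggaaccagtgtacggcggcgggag
Hsph1, chr12:10427296-10427355, plus strand: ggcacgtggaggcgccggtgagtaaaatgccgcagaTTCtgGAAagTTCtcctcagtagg
Dnaja1, chr5:60638197-60638256, plus strand: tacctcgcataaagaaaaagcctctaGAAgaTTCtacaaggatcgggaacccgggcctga
Dnajb1, chr19:41431144-41431203, minus strand: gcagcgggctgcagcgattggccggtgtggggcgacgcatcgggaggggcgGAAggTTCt
Hspb1, chr12:26432387-26432446, minus strand: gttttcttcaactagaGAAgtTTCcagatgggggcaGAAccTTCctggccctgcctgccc
Hspa9, chr18:26828449-26828508, minus strand: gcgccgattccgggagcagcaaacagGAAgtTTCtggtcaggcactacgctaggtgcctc

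The stretch of Hspd1 holds 4 units in a row, from 242 bases before its start. Hspe1 lies head to head with it, and the same array, read on the other strand, begins 65 bases before the start of Hspe1. In Hsph1 the array of 3 units begins 36 bases before the start. The array of Dnaja1 lies after its start and is not shown, so the stretch printed for it holds 1 pair. Dnajb1 and Hspa9 each have a second pair after the start, and both pairs of Hspb1 are in the stretch shown. By the same search, a pair was found in 15 of 68 promoters of other heat shock network genes and in 1 of 14 promoters of ER chaperones. Matches are descriptions of these letters and were not tested as binding sites.

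**Figure D1:**
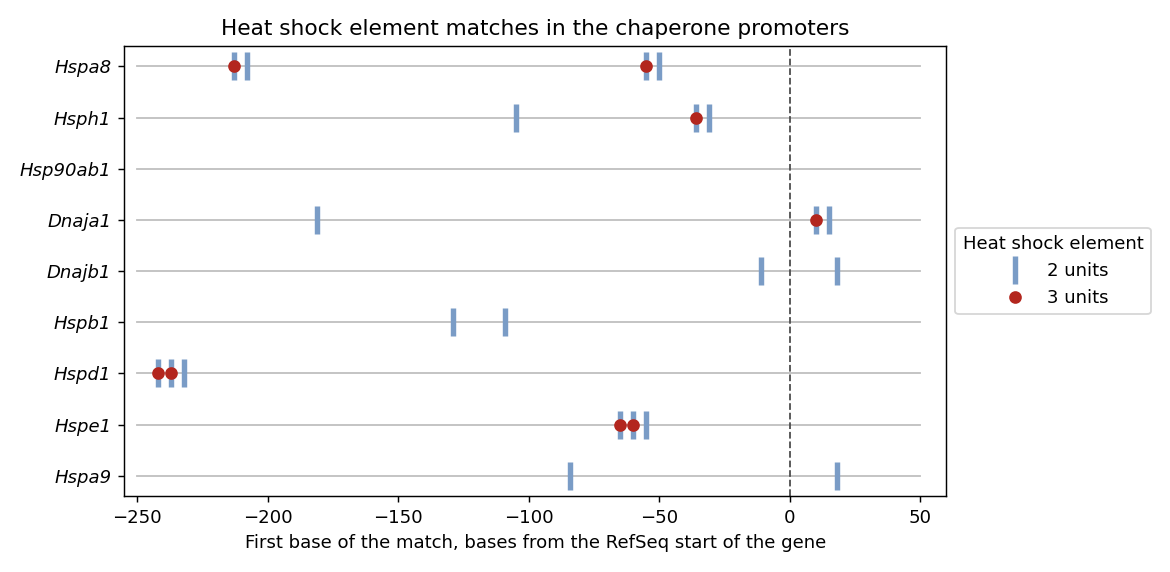
Positions of heat shock element matches in the 9 member promoters found in RefSeq. The x axis gives the first base of each match in bases from the gene's start, bars are pairs of units and red points are arrays of 3 units. Arrays of 3 units are present for 5 genes, and Hsp90ab1 has no match.

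By mean FPKM over the 6 libraries, Hsp90ab1, the constitutive cytosolic HSP90, came first at 573.8 FPKM (rank 122 of the 10201 loci). It was followed by Dnaja1 at 142.6, Hspa9 at 101.7, Hspd1 at 65.0, Hsph1 at 42.9, Dnajb1 at 23.3 and Hspb1 at 13.7 FPKM. The ranges over the 6 libraries overlapped for each pair of neighbours in this order. Within libraries, Hsp90ab1 was the highest member in all 6. Hepatocyte markers dominated every library, with a summed level of 8 markers between 48037 and 142074 FPKM, and cholangiocyte markers summed to at most 4.35 FPKM. The WD light library was the deepest, at 2.34 times the CD heavy library, against 1 to 1.57 for the others. The summed level of 5 erythroid markers reached 543 FPKM in the WD light library, whereas the other 5 libraries had 26.6 to 105 FPKM. This sum was carried by 4 globin genes. The 5th marker, Alas2, the first enzyme of erythroid heme synthesis, was lowest in the WD light library, at 7.18 FPKM against 8.23 to 19.7 FPKM in the others. The part of globins and depth in the results was not tested, and the members' ribosome densities are also given as heavy over total RNA.

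**Figure D2:**
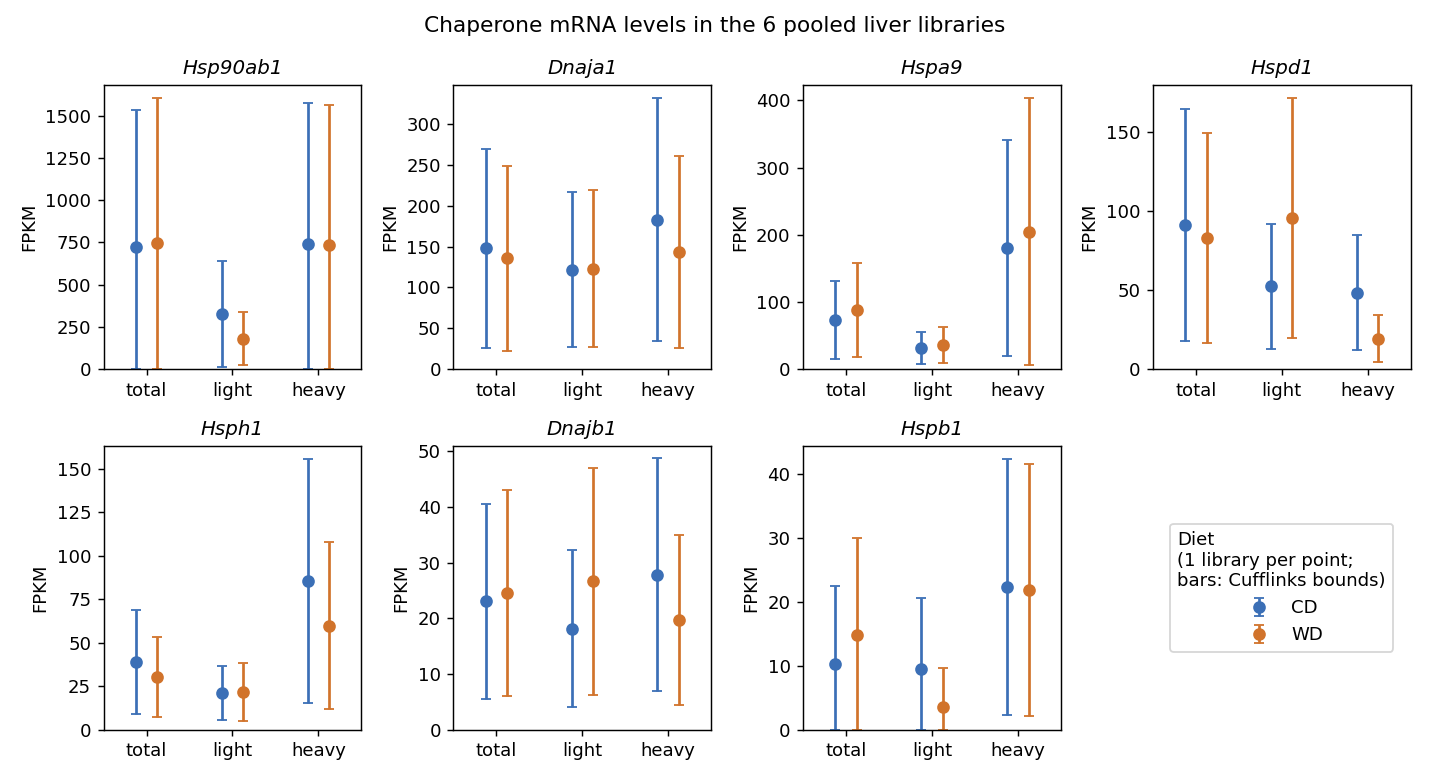
Level of each of the 7 members compared, in FPKM (y axis, from 0), in total RNA and in the light and heavy fractions of CD and WD livers. Each point is 1 library and the bars are the bounds that Cufflinks gives for the value. Bounds overlap between diets in every panel, and the points of Hspd1 are far apart in both fractions.

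The bounds that Cufflinks attached to the values are wide. For none of the 7 members did they lie apart between diets in total RNA, the light or the heavy fraction, or between fractions within CD or WD. Among all loci compared they lay apart at 0.0392% for total RNA, 0.48% for the light fraction and 0.0882% for the heavy fraction between diets. Between fractions they lay apart at 1% of loci in CD and 1.53% in WD. A narrower error could be had where the FPKM values of a gene gave whole numbers of fragments, to within 5e-05 of the number plus 0.0001, with up to 2 of the 6 values allowed not to be whole. This held for 6 of the 7 members and for 75.8% of the loci compared. A 95% counting interval of a ratio is given for these. It compares 2 pooled libraries and covers counting error only, not rats, and it takes sequenced fragments as independent molecules. Unless stated otherwise, log2 changes are of WD over CD after 0.1 FPKM was added to each value.

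Total RNA showed little difference between diets. Of the 7 members, 4 were higher and 3 lower in WD, the log2 changes ran from -0.36 to 0.52 and the median was 0.05, beside 0.02 over all loci. None of the 7 reached a ratio of 1.5, beside 17.7% of all loci and 8.77% of loci averaging 10 FPKM or more, as all 7 members did. None was at or below 0.75, beside 22.7% and 16.2%. In tissue RNA, fewer cells that express a gene and less RNA per cell cannot be told apart. The interval of the ratio held 1 for all 6 members with fragment numbers, whereas it did not for 7.56% of loci with such numbers and for 12.3% of those averaging 10 FPKM or more.

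Hsp90ab1 (Rnor_6.0 chromosome 9, 17817721 to 17823243) had 719.9 FPKM in CD and 747.8 FPKM in WD total RNA, a log2 change of 0.05. Hsph1, the HSP110 that exchanges the nucleotide of HSP70 (chromosome 12, 6322668 to 6341902), had 39.1 FPKM from 145 fragments in CD and 30.4 FPKM from 108 in WD. Its ratio was 0.779 (0.601 to 1.01), the lowest of the 7. Dnaja1 (chromosome 5, 57028467 to 57039378) had 148.3 and 135.6 FPKM, from 239 and 209 fragments, a ratio of 0.914 (0.756 to 1.11). The differences of Hsph1 and Dnaja1 were thus within counting error. Dnajb1, the J-domain partner that is induced by stress (chromosome 19, 24747178 to 24750919), had 23.0 and 24.5 FPKM from 52 and 53 fragments. Hspb1, the small heat shock protein HSP27 (chromosome 12, 23839399 to 23841049), had 10.3 FPKM in CD and 14.8 FPKM in WD. Its ratio of 1.43 was the highest, but it rested on 8 and 11 fragments and the interval ran from 0.527 to 4.12.

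The mitochondrial members were close as well. Hspd1, the HSP60 subunit (chromosome 9, 61680530 to 61690956), had 91.5 FPKM from 212 fragments in CD and 83.0 FPKM from 184 in WD, a ratio of 0.907 (0.741 to 1.11). Hspa9, the mitochondrial HSP70 or mortalin (chromosome 18, 27731072 to 27749235), had 73.1 FPKM from 220 fragments and 87.1 FPKM from 251. Its ratio was 1.19 (0.991 to 1.44).

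In the light fraction the members did not move together. Of the 7, 5 were higher and 2 lower in WD, and the median log2 change was 0.05, beside 0.02 over all loci. This split depended on scaling. When the libraries were rescaled to equal sums, the median of all loci was -0.29 and 2 members were higher and 5 lower. A ratio of at least 1.5 was reached by Hspd1 alone, beside 25.9% of all loci and 17.1% of those averaging 10 FPKM or more. Hsp90ab1 and Hspb1 were at or below 0.75, beside 26.8% and 27.2%. The interval excluded 1 for 1 of 6 members, Hspd1, beside 17.5% of loci with fragment numbers and 31.2% of those averaging 10 FPKM or more.

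Hspd1 went from 52.4 FPKM in the CD light fraction to 95.5 FPKM in the WD light fraction, from 83 and 329 fragments. The ratio was 1.82 (1.43 to 2.35). Under the rescaling its log2 change was 0.51 in place of 0.87. Hsp90ab1 went the other way, from 325 FPKM in CD to 180.2 FPKM in WD, a log2 change of -0.85 for which no counting interval could be computed. Its Cufflinks bounds were 11 to 639 FPKM in CD and 22.5 to 338 FPKM in WD. Hspb1 had 9.44 FPKM from 5 fragments in CD and 3.47 FPKM from 4 in WD, a ratio of 0.375 with an interval from 0.073 to 1.71 that includes 1. At this depth, no difference was detectable for Hspb1.

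The other 4 members differed by less than counting error in the light fraction. Hsph1 had 20.9 and 21.6 FPKM, a ratio of 1.03 (0.741 to 1.46), and Dnaja1 had 121.7 and 122.8 FPKM, a ratio of 1.01 (0.82 to 1.25). Hspa9 had 30.6 and 35.7 FPKM, a ratio of 1.17 (0.867 to 1.59). Dnajb1 had 18.1 and 26.6 FPKM, a ratio of 1.46 (0.947 to 2.32), where the WD light value was not a whole number of fragments (89.4, rounded down for the interval).

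In the heavy fraction, 6 of the 7 members were lower in WD and only Hspa9 was higher. The median log2 change was -0.35, beside -0.02 over all loci. Centred on the median of all loci, 5 were lower and 2 higher. Ratios of at most 0.75 were found for Hspd1, Hsph1 and Dnajb1, 3 of the 7, beside 25.8% of all loci and 19.2% of those averaging 10 FPKM or more. No member reached 1.5, beside 21.7% and 13.3%. The interval excluded 1, on the lower side, for Hspd1, Hsph1 and Dnaja1. That is 3 of 6 members, beside 7.41% of loci with fragment numbers and 12.9% of those averaging 10 FPKM or more.

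Hspd1 had 48.1 FPKM from 71 fragments in the CD heavy fraction and 19.2 FPKM from 29 in the WD heavy fraction, a ratio of 0.4 (0.25 to 0.622). Hsph1 had 85.5 FPKM from 202 fragments and 59.9 FPKM from 145, a ratio of 0.701 (0.562 to 0.872). Dnaja1 had 183.3 FPKM from 188 fragments and 143.7 FPKM from 151, a ratio of 0.784 (0.629 to 0.977). Of these 3, Hspd1 was the furthest from 1. Dnajb1 had 27.8 and 19.7 FPKM from 40 and 29 fragments, and its interval of 0.423 to 1.17 includes 1. Hsp90ab1 was level at 738 and 731.8 FPKM, as was Hspb1 at 22.3 and 21.8 FPKM from 11 fragments each. Hspa9 had 179.5 FPKM from 344 fragments in CD and 204.2 FPKM from 401 in WD, a ratio of 1.14 (0.983 to 1.32).

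**Figure D3:**
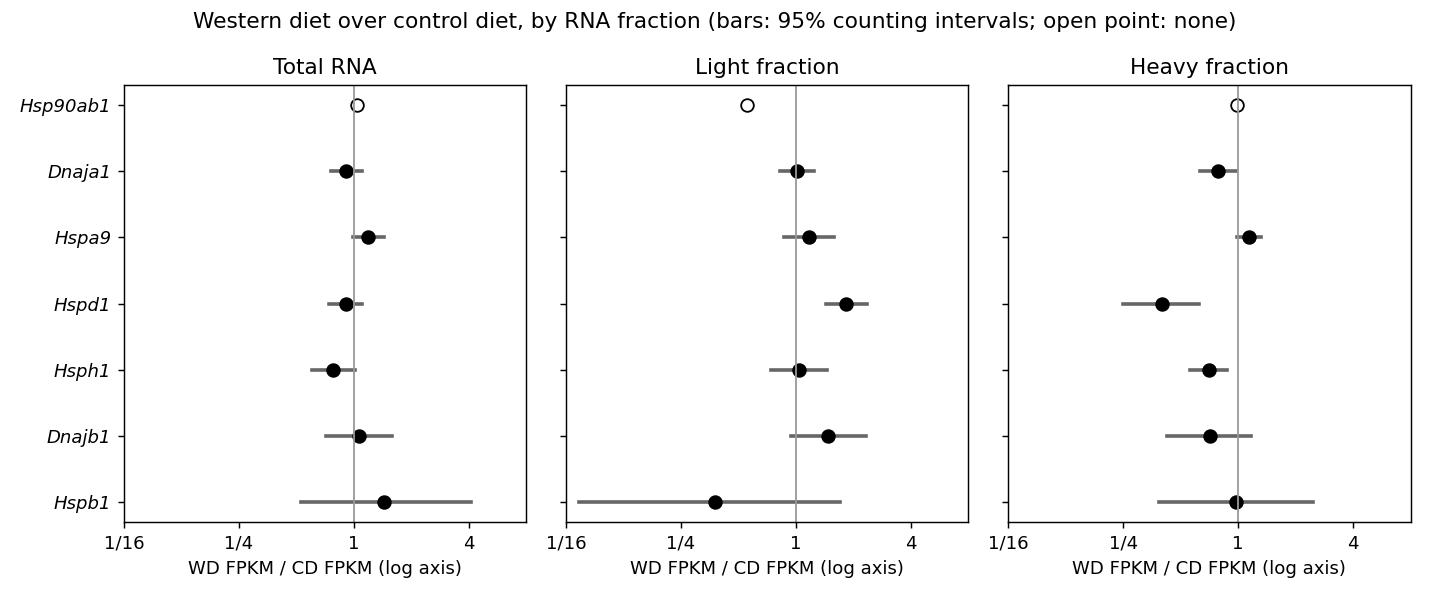
Ratio of the WD to the CD level of each member (x axis, log scale) in total RNA and in the light and heavy fractions. Points are 1 pair of pooled libraries, bars are 95% counting intervals, and the open points of Hsp90ab1 have none. All total RNA intervals include 1, and Hspd1 lies at 1.82 in the light and 0.4 in the heavy fraction.

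Ribosome density was taken as the heavy over the light level within a diet, as in the study. Within CD, 6 of the 7 members had a ribosome density of at least 1.5, beside 32.9% of all loci and 34.9% of those averaging 10 FPKM or more. None was at or below 0.75, beside 36.6% and 31.9%. Their median log2 value was 1.18, beside 0.01 over all loci. As heavy over total RNA, 3 members reached 1.5, Hspd1 was at or below 0.75 and the median was 0.31, beside 0.00 over all loci. Hspa9 had the highest density, 5.85 (4.47 to 7.8), followed by Hsph1 at 4.08 (3.01 to 5.65). Hspb1 had 2.35 (0.757 to 8.67), Dnajb1 1.53 (0.923 to 2.58) and Dnaja1 1.51 (1.2 to 1.89). Hsp90ab1 had 2.27 without an interval. The intervals of Hspb1 and Dnajb1 include 1. Over total RNA the CD heavy level was 2.45 for Hspa9, 2.19 for Hsph1, 2.15 for Hspb1, 1.24 for Dnaja1, 1.21 for Dnajb1, 1.03 for Hsp90ab1 and 0.527 for Hspd1. In density over the light fraction, Hspd1 was the only member below 1, at 0.919 (0.66 to 1.28). Its interval includes 1 as well. The 2 mitochondrial members compared therefore stood at opposite ends of the order.

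Within WD, 4 of the 7 had a density of at least 1.5, beside 31.4% of all loci and 37.1% of those averaging 10 FPKM or more. At or below 0.75 were 2, beside 38.5% and 32.1%. The median log2 value was 1.47. As heavy over total RNA, 2 members reached 1.5, 1 was at or below 0.75 and the median was 0.08. Hspb1 had 6.12 (1.86 to 27), Hspa9 5.7 (4.75 to 6.91), Hsp90ab1 4.06 and Hsph1 2.77 (2.16 to 3.57). Dnaja1 was at 1.17 (0.956 to 1.43) and Dnajb1 at 0.741 (0.471 to 1.14), and the intervals of both include 1. Hspd1 was lowest at 0.202 (0.132 to 0.294). Over total RNA the WD heavy level was 2.34 for Hspa9, 1.97 for Hsph1, 1.46 for Hspb1, 1.06 for Dnaja1, 0.979 for Hsp90ab1, 0.804 for Dnajb1 and 0.232 for Hspd1. By either measure, Hspa9 was above 2 in both diets and Hspd1 lay below the other members in both.

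**Figure D4:**
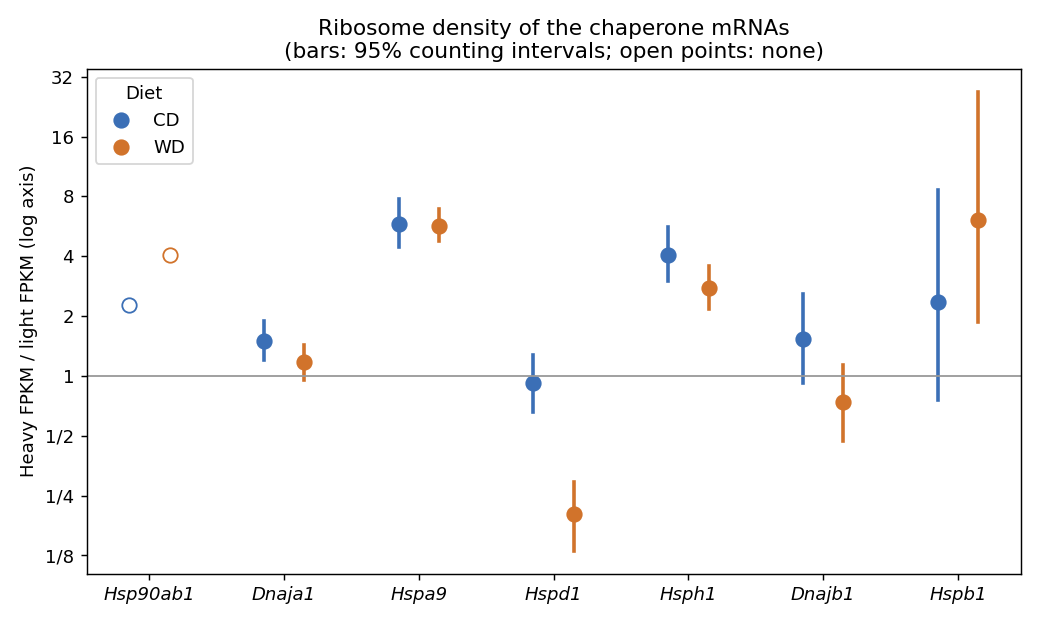
Ribosome density of each member, the heavy over the light FPKM (y axis, log scale), in CD and WD. Points are 1 pair of pooled libraries, bars are 95% counting intervals, and open points have none. Hspa9 is near 5.85 in CD and 5.7 in WD, whereas Hspd1 is at 0.919 in CD and 0.202 in WD.

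Between diets, ribosome density was lower in WD for 5 members and higher for 2, and the median log2 change was -0.36, beside -0.02 over all loci. After rescaling to equal sums, the median of all loci was 0.28, and 4 members were lower and 3 higher. Hsp90ab1 and Hspb1, 2 of the 7, reached 1.5, beside 27.7% of all loci and 23.3% of those averaging 10 FPKM or more. Hspd1, Dnajb1 and Hsph1, 3 of the 7, were at or below 0.75, beside 36.1% and 27.6%. With heavy over total RNA, none reached 1.5 and the median change was -0.22. The interval of the ratio excluded 1 for Hspd1 and Dnajb1, 2 of 6 members, beside 9.66% of loci with fragment numbers and 18.1% of those averaging 10 FPKM or more.

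The log2 ribosome density change of Hspd1 was -2.19, a ratio of 0.22 (0.129 to 0.368). It lay at percentile 10.6 of all loci and at percentile 4.3 of loci averaging 10 FPKM or more. Both fractions entered, in opposite directions. Among the 7729 loci with fragment numbers, 22 (0.285%), Hspd1 included, had a light interval above 1 together with a heavy interval below 1. Of these 7729 loci, 56.3% in the CD heavy and 55.4% in the WD heavy library had 10 or fewer fragments. The share is therefore not one for loci at the level of Hspd1, and none was computed for loci averaging 10 FPKM or more. Without the WD and CD light libraries, the heavy fraction over total RNA of Hspd1 was 0.527 in CD and 0.232 in WD, a ratio of 0.441 (0.263 to 0.721). Without the heavy libraries, light over total RNA was 0.573 in CD and 1.15 in WD, a ratio of 2.01 (1.46 to 2.78). Total RNA of Hspd1 was nearly level, so these ratios carry the directions of the heavy and light values themselves. In GRCr8, 20 pseudogene copies carry the name of Hspd1, and how reads shared with such copies were counted was not tested.

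The other changes in ribosome density were smaller or less certain. Dnajb1 had a log2 change of -1.05 (interval of the ratio, 0.243 to 0.963). With heavy over total RNA the ratio of Dnajb1 was 0.665 and its interval of 0.343 to 1.28 includes 1. Hsph1 had -0.56 (0.451 to 1.02) and Dnaja1 by -0.36 (0.572 to 1.06), and both intervals include 1. Hspa9 had -0.04 (0.692 to 1.36). With heavy over total RNA these were -0.15 for Hsph1, -0.22 for Dnaja1 and -0.07 for Hspa9, and the intervals of all 3 include 1.

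Hsp90ab1 had a log2 change of 0.84, all of it from the light fraction, since its heavy values were level. With heavy over total RNA the change of Hsp90ab1 was -0.07. GRCr8 names 23 pseudogene copies of Hsp90ab1, and its FPKM values were not whole numbers of fragments. Hspb1 had 1.38, the highest of the 7, and the interval of its ratio spanned 0.43 to 17.2. With heavy over total RNA Hspb1 had -0.55, the opposite sign. No difference in ribosome density was detectable for Hspb1.

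The 3 remaining members could not be compared by symbol. The row with the symbol Hspa8, the constitutive cytosolic HSP70, lay on chromosome 5 (98998163 to 99179966), in a locus shared with Pramef5 and Oog3. It had 1 fragment in each of the WD light, CD heavy and WD heavy libraries, at 0.311, 0.725 and 0.708 FPKM, and was listed at 0 in the others. GRCr8 names 33 pseudogene copies of Hspa8. The row of Hsp90aa1, the inducible HSP90 (chromosome 6, 134958854 to 135089409), was listed at 0 in all 6 libraries. No row carried the symbol Hspe1, the HSP10 lid of HSP60.

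GRCr8 places these 3 genes between neighbours whose symbols the files also hold, and the loci between the same neighbours were read out. The files do not pair these loci with the member symbols, so they are described by position only. Between Hspd1 and Mob4, where GRCr8 has Hspe1, AABR07067760.1 (chromosome 9, 61692154 to 61694599) had 189 FPKM in CD and 160.2 FPKM in WD total RNA. It had 259 and 309 FPKM in the light and 352 and 307 FPKM in the heavy fraction, from 13 to 39 fragments per library. Its log2 ribosome density change was -0.45 (interval of the ratio, 0.275 to 1.94), which includes 1.

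Between Dync1h1 and Wdr20, where GRCr8 has Hsp90aa1, LOC103692716 (chromosome 6, 135107271 to 135112775) had between 3.93 and 11.5 FPKM from 9 to 27 fragments. Its ribosome density change was 0.70 (0.492 to 5.35). Between Clmp and Bsx, where GRCr8 has Hspa8, AABR07070032.1 (chromosome 8, 44990014 to 44993179) had 6.03 and 2.1 FPKM in CD and WD total RNA. It had 0.736 FPKM from 1 fragment in the CD light and 50.7 FPKM from 150 fragments in the WD light fraction, a log2 change of 5.93 (interval of the ratio, 12.2 to 2740). In the heavy fraction it had 25.3 FPKM from 32 fragments in CD and 16.2 FPKM from 21 in WD. Its log2 ribosome density was 4.92 in CD (interval of the ratio, 5.74 to 1400) and -1.64 in WD (0.192 to 0.506). The log2 change was -6.57 (0.000227 to 0.0639), and its CD light value rested on 1 fragment.

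Hsf1, heat shock factor 1, had between 1.24 and 5.78 FPKM, from 2 to 15 fragments per library. Hspa1a and Hspa1b, the inducible HSP70 genes, were listed at 0 in all 6 libraries. The locus given for Hspa1b runs from 4638663 to 5008262 on chromosome 20 and is also that of Hspa1l. How reads of these genes were assigned was not tested, so the 0 does not show that they were not expressed. Of 85 other genes of the heat shock network, from the lists of co-chaperones, other chaperones and mitochondrial proteases, 72 were compared. In total RNA 34 of them were higher and 38 lower in WD, with a median log2 change of -0.05. Of the 72, 14 reached 1.5, beside 17.7% of all loci, and 18 were at or below 0.75, beside 22.7%. Ribosome density was higher for 37 and lower for 35, with a median of 0.06. Here 16 reached 1.5, beside 27.7% of all loci, and 23 were at or below 0.75, beside 36.1%. Both medians were near those of all loci, 0.02 and -0.02.

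Among list genes with a mean of at least 10 FPKM, the direction differed between lists, and ribosome density was taken over the light fraction only. Stub1, Ahsa1, Dnajc8 and Tcp1 were found only in loci merged with another symbol and were not ranked. The log2 ribosome density changes of these merged loci were -4.23, 6.32, 3.88 and 0.13. The list of other HSP70 and HSP110 genes, which leaves out Hspa5 of the ER, held 2 genes of that level. Both were lower in ribosome density. The log2 change was -0.35 for Hspa4, where the interval of the ratio (0.47 to 1.3) includes 1. It was -0.38 for Hspa13, which had no interval. For HSP70 cofactors, ribosome density change was lowest for St13, the HSP70-interacting protein Hip, at -2.15 (interval of the ratio, 0.0671 to 0.711), and highest for Stip1, the Hop adaptor between HSP70 and HSP90, at 0.58 (0.948 to 2.36). St13 had 14.0 and 28.6 FPKM in the light and 14.1 and 6.43 FPKM in the heavy fraction of CD and WD, and the heavy interval of 0.157 to 1.19 includes 1, unlike that of Hspd1. For HSP90 co-chaperones, Ptges3, known as p23, had -1.13 (0.163 to 1.26) and Cdc37l1 1.35. Of the same list Fkbp4, an immunophilin, had the lowest abundance change, -0.45 (0.563 to 0.944).

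The list of other J-proteins leaves out those of the ER and mitochondrial lists. All 5 of its genes of at least 10 FPKM were higher in ribosome density. Of these 5, only Dnajc5 had an interval that excluded 1, and Dnajb2 had no interval. Over all 13 genes compared from this list, 7 were higher and 6 lower, with a median of 0.08. The members Dnaja1 and Dnajb1 were both lower. The change of the 5 ran from 0.10 for Dnaja4 (0.399 to 2.91) to 1.71 for Dnajc5 (1.19 to 9.71). Not all J-proteins of the ER list were higher, with -0.37 for Dnajb9. The abundance change of the 5 ran from -0.93 for Dnajb12 (0.32 to 0.837) to 0.05 for Dnajb2. Hspb8 was the only other small heat shock protein of at least 10 FPKM, with an abundance change of 0.06 and a ribosome density change of 0.82 (1.09 to 2.87). In the cytosolic folding complexes TRiC and prefoldin, the ribosome density change ran from -1.79 for Cct7 (0.0955 to 0.765) to 1.19 for Pfdn6 (0.408 to 13.2). Abundance change ran from -0.86 for Pfdn1 (0.229 to 1.24) to 1.28 for Pfdn5 (1.37 to 4.5). Among mitochondrial partners, Grpel1, the nucleotide exchange factor of Hspa9, had the lowest ribosome density change, -1.78, and also the highest abundance change, 0.66. Dnaja3, a mitochondrial J-protein, had the highest density change at 0.82. No counting interval was available for Grpel1 and Dnaja3.

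**Figure D5:**
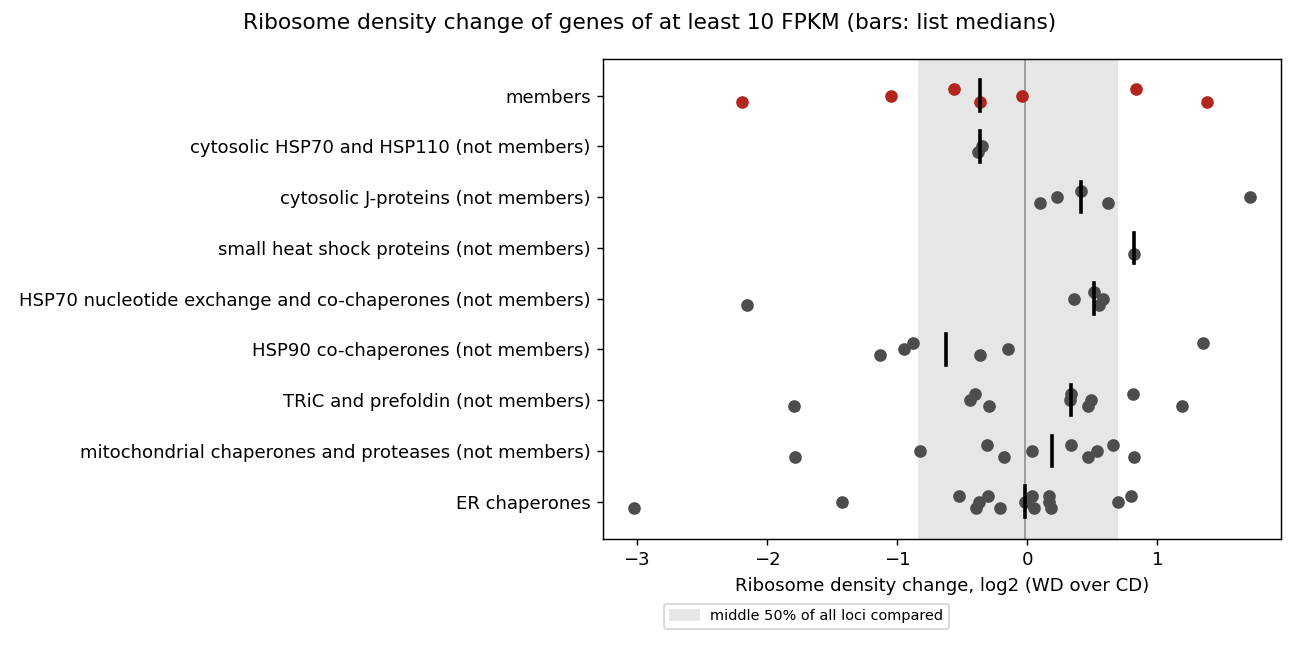
Log2 ribosome density change (x axis, WD over CD) of the 7 members in red and of genes of the other lists with a mean of at least 10 FPKM in grey. Each point is 1 gene from 4 pooled libraries, black bars are list medians and the shaded band, from -0.83 to 0.69, holds the middle 50% of all loci compared. The members run from -2.19 for Hspd1 to 1.38 for Hspb1.

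The chaperones of the endoplasmic reticulum (ER) are the nearest family to the members. Of 17 ER chaperones, 15 were compared, of which 12 were higher and 3 lower in WD total RNA, with a median log2 change of 0.25, beside 0.05 for the members. Cell type markers were read out as well. All 7 markers of Kupffer cells and macrophages were higher in WD total RNA, with a median of 0.67. Their sum was 61.1 FPKM in CD and 90.2 FPKM in WD. In the heavy fraction 6 of 7 were higher, with sums of 118 and 158 FPKM. Every abundance interval available for these 7 markers included 1. In total RNA, 4 of 4 sinusoidal endothelial and 4 of 5 stellate markers were higher too. Lower were 6 of 8 hepatocyte and 4 of 5 erythroid markers. The part of cell types in the ER chaperone values was not tested. Hspa5, the ER HSP70 known as BiP, had 284 and 332 FPKM in CD and WD total RNA, 116 and 191 FPKM in the light fraction and 493 and 622 FPKM in the heavy fraction. Its abundance change was 0.22 (interval of the ratio, 1.06 to 1.29) and its ribosome density change -0.39 (0.638 to 0.915). Hsp90b1, the ER HSP90, was found only in a locus merged with AABR07056495.1, which went from 209.7 to 268 FPKM in total RNA. The heavy fraction was higher in WD for 12 of the 15 ER chaperones, with a median of 0.14, whereas it was lower for 6 of the 7 members, with a median of -0.35. Both counts include values near 0, among them 0.03 for Dnajb9 of the ER and -0.01 for Hsp90ab1 and -0.03 for Hspb1. The difference between the families was not tested, since each value comes from the same pair of libraries. The median ribosome density change was -0.02 for ER chaperones and -0.36 for the members.

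The median of the 7 centred profiles was highest in the heavy libraries, at 0.54 in CD and 0.53 in WD on the log2 scale, and lowest in the light libraries, at -0.34 in CD and -0.79 in WD. Among 3901 other genes with a mean of at least 10 FPKM, the nearest to this profile over the 6 libraries were Serinc1, Cpb2, Selk, Nedd4 and Hadh, with a root mean square difference of 0.04 to 0.09, beside a median of 0.61 over those genes. Among the members the difference ran from 0.34 for Dnaja1 to 1.15 for Hspd1. Hspd1 and Hspa9, at 0.62, lay above the median of 0.61, and the other members lay below it. The 5 genes were picked as the nearest and the profile was made from the members, so these distances are descriptions only.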

How the data were processed

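Total RNA and light and heavy gradient fractions of CD and WD rat liver were measured in 6 libraries, each a pool of RNA from 3 rats. Ribosomal RNA was depleted by the authors before sequencing. They deposited FPKM values per locus, with lower and upper bounds, made with TopHat alignment to Rnor_6.0 and the Cufflinks pipeline with Cuffnorm. The methods also describe a Riboseq alignment route, and which route the fraction reads took is not certain. The annotation is not given in the sources used here. The members and lists were chosen with earlier results of these data known.

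Members were matched by exact symbol, at the highest mean where repeated. The loci compared have a symbol, no failed estimate in any library, and average 1 FPKM or more. Ratios were computed after adding 0.1 FPKM and counted at 1.5 and 0.75, the study's thresholds for ribosome density, here as WD over CD. Fragment numbers were inferred from the FPKM values of a gene, which are whole multiples of a step that depends on the gene and of a factor that depends on the library. The inference was tried on simulated libraries built from whole fragments by the same rule. These held no reads shared between copies or isoforms, so that case was not checked. Multiples of these numbers would give the same FPKM. Intervals are 95% Clopper-Pearson intervals, or exact conditional odds ratio intervals for ribosome density change. The libraries held between 222711 and 520526 inferred fragments in the loci with fragment numbers, with a median of 8 to 22 per locus. These loci were 75.8% of those compared. Loci without fragment numbers, Alb among them, are not in these sums. With 1 library per group no test was run. Genes named from the other lists are those of at least 10 FPKM with the highest or lowest change in abundance or ribosome density, beside Hsf1, Hspa1a, Hspa1b, Hspa5 and Hsp90b1. The 5 genes nearest to the members' median profile are named by the rule too. Alas2, St13's fraction values and the 3 loci described by position were chosen after values were seen. So were the list genes named from merged loci and the ER chaperones named for their abundance intervals. GRCr8 was used for gene order, pseudogene names and promoters only. Python 3.11.15, numpy 2.4.6, pandas 2.3.3, scipy 1.17.1 and matplotlib 3.10.9 were used. Alternatives were other pseudocounts and filters, other scalings, summed loci, the heavy fraction over total RNA, other thresholds, and the 3 loci at member positions.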

Additional observations from a re-analysis of the deposited data

Results flagged for a closer look

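Hspd1 was marked because its diet ratio pointed in opposite directions in the light and heavy fractions, with neither counting interval holding 1. The light ratio was 1.82 (1.43 to 2.35) and the heavy ratio 0.4 (0.25 to 0.622), which gives a log2 ribosome density change of -2.19 or a ratio of 0.22 (0.129 to 0.368). The interval covers counting error between 4 pooled libraries, so a difference between the diets themselves was not tested. The summed level of erythroid markers, carried by globins and not by Alas2, was highest in the WD light library, which was also the deepest. The part of both in the light ratio was not tested. The heavy ratio does not use that library.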

How the results depend on the processing

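No paired analysis was possible because each group holds 1 library, and no replicate could be left out. With the heavy fraction over total RNA, Hsp90ab1 turned to -0.03 for WD ribosome density and to -0.07 for its change. By the same measure, 3 members in place of 6 had a CD density of at least 1.5 and 1 in place of none was at or below 0.75. In WD these counts were 2 in place of 4 and 1 in place of 2, and for the change 0 in place of 2 reached 1.5. With each library rescaled to the same sum, 1 member in place of none reached 1.5 in abundance, 0 in place of 1 in the light fraction, and 1 in place of 2 was at or below 0.75 for WD density. Without a filter, and with centring on loci of at least 30 FPKM, 2 members in place of 1 reached 1.5 in the light fraction. With 1 over 1.5 in place of 0.75, 1 member in place of 3 was low in the heavy fraction and 1 in place of 2 for WD density. Requiring Cufflinks bounds that lie apart left 0 members in every count of abundance, light and heavy fraction and CD and WD density. The bounds were not applied to the density change. With the 3 loci at member positions added, an alternative chosen after seeing the data, 1 locus was at or below 0.75 in abundance, 2 reached 1.5 in the light fraction, 1 was at or below 0.75 for CD density and 5 in place of 3 for the density change. At a mean of at least 10 FPKM, 39 other network genes were left. Of these, 5 in place of 14 reached 1.5 and 7 in place of 18 were at or below 0.75 in abundance. For ribosome density change, 8 in place of 16 and 8 in place of 23 did so. Among all loci of that level the shares were 8.77% and 16.2% for abundance and 23.3% and 27.6% for ribosome density change. The other 114 recomputed counts stayed within 1.5 times their value. The members' median went from 0.05 to -0.31 in the light fraction with equal sums, and from -0.35 to -0.03 in the heavy fraction without a filter. As heavy over total RNA it went from 1.18 to 0.31 for CD and from 1.47 to 0.08 for WD density. Of single values and medians, 385 moved by less than their error and 21 by more. Depth limits Hspb1 most, with 4 to 11 fragments per library.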
